A study of Rattus norvegicus with 4 samples.

Results

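The nucleosome positions of chromosome 2 were compared between spermatozoa of rats given tamoxifen and those of 2 control libraries. Every position that the authors' table of this comparison lists for the chromosome was taken, 895443 of the 3786828 positions in the 6 tables of the series. The authors' table of both controls against each other, with 868880 positions on the same chromosome, served only as the replicate spread. All rats were randomly bred adult Holtzman males, 75 days old. The tamoxifen group received 0.4 mg per kg per day by mouth in water for 60 days, and the control group received water alone. The labels give 6 animals per group without stating from how many of them a library was made. Spermatozoa of the caudal epididymis were cut with micrococcal nuclease, and DNA of about 150 bp was sequenced. There was 1 tamoxifen library and there were 2 control libraries.

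During spermatogenesis most histones are exchanged for protamines, which pack the DNA too tightly for the nuclease to release nucleosome-sized fragments. Where histones stay, micrococcal nuclease cuts the linkers and leaves the DNA wrapped around each nucleosome. Occupancy is the amount of such protected DNA at a place, and fuzziness is how widely the fragments scatter around the centre of a position. Tamoxifen is a selective estrogen receptor modulator, and estrogen signalling is known to take part in the function of the male reproductive tract and in spermatogenesis. The labels state the aim of the series as a comparison of sperm nucleosome profiles with and without the drug.

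The sides of the table are headed control and treat, and the values go against a plain reading of these names. Values under the control heading were whole multiples of 1 step, the value of a read in a single library. Those under the treat heading were sums of multiples of 2 steps. These steps had a ratio of 1.10959, as had the steps of the libraries in the control table. The control heading was accordingly taken to hold tamoxifen and the treat heading the pooled controls, and every direction given here rests on that reading. The pooled side could be split into the reads of each control: at the 105740 positions whose centre and summits coincided in both tables, the split gave the same reads as the control table in 100% of cases. The headers do not tell control replicate 1 from 2, so the libraries are called the deeper and the shallower control.

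Coverage was thin. Over the listed positions the tamoxifen library held 1311684.5 reads at the summits, the deeper control 1008216 and the shallower control 971682 (reads are counted in steps of 0.5). Of the positions with tamoxifen reads, 48.4% had 1 read or less. Both sides had reads at 55.3% of positions, and all 3 libraries at 26.2%. With 1 library against 2, an exact two-sided permutation test over libraries cannot give a p below 0.333, so no test was made. Differences are set beside the gap between the controls, which may be technical. All intervals cover counting error only, as 1 treated library gives no replicate spread. PCR copies carried no molecular identifiers, so reads may not be independent and the intervals may be too narrow even for counting error.

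At the level of single positions, tamoxifen and the pool were not apart more often than the controls were from each other. The 2 comparisons are unlike in depth, as the pool holds the reads of both controls and each side of the pair is 1 library. Occupancy at the summit was at least 2 times the pool at 35.6% of all positions and at most 1/2 of it at 28.7%. The control pair was at least 2 times apart at 73.3% of its positions. Where both sides had reads, 22.9% of positions were higher and 12.6% lower with tamoxifen, 35.5% together, against 36.4% for the control pair. The pair was lopsided too, with the shallower control higher at 25.8% and lower at 10.6%. Where at least 1 side had 3 or more reads, the split turned: 23.1% were higher and 38.9% lower with tamoxifen, against 73.0% of positions apart in the pair. The pool, with the reads of both controls, passes this filter more easily than tamoxifen. Positions that pass through the pool alone lean toward a count as lower, so no direction is drawn from this split. A side without reads counts as apart in the counts over all positions and in the last ones.

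Positions seen on 1 side only were counted as a check of what a listed position needs. A tamoxifen read was worth 7.13 units of the authors' scaled coverage, and a read of the pool 4.05 or 4.49 units. Positions with tamoxifen reads only numbered 205722, or 23.0%, and those with pool reads only 194485, or 21.7%. Of the former, 117397 had 1 read or less, and of the latter 1072. With 2 or more reads the order was the reverse, with 82543 positions for tamoxifen only and 188013 for the pool only, and with 5 or more reads there were 3288 and 22467. The pool also holds the reads of both controls, more than the tamoxifen library. Numbers of such positions were therefore not compared further.

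Tamoxifen stood apart from both controls, by more than these from each other, in its number of heavily read positions. This comparison was added after the data were seen. At 385 positions the tamoxifen library had 20 or more reads, against 36 in the deeper control and 38 in the shallower one. These positions held 0.898% of the tamoxifen reads, against 0.107% and 0.103% for the corresponding positions of the controls, a ratio of 8.57 to the mean of both. At 5 or more reads no such gap was seen: the share was 11.5% with tamoxifen, between the 9.19% of the deeper and the 13.4% of the shallower control. At 10 or more reads it was 2.17% with tamoxifen, 0.435% in the deeper and 0.841% in the shallower control. At 50 or more reads there were 32 positions with tamoxifen, 2 in the deeper control and none in the shallower one, and at 100 or more 3 with tamoxifen and none in either control.

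**Figure D1:**
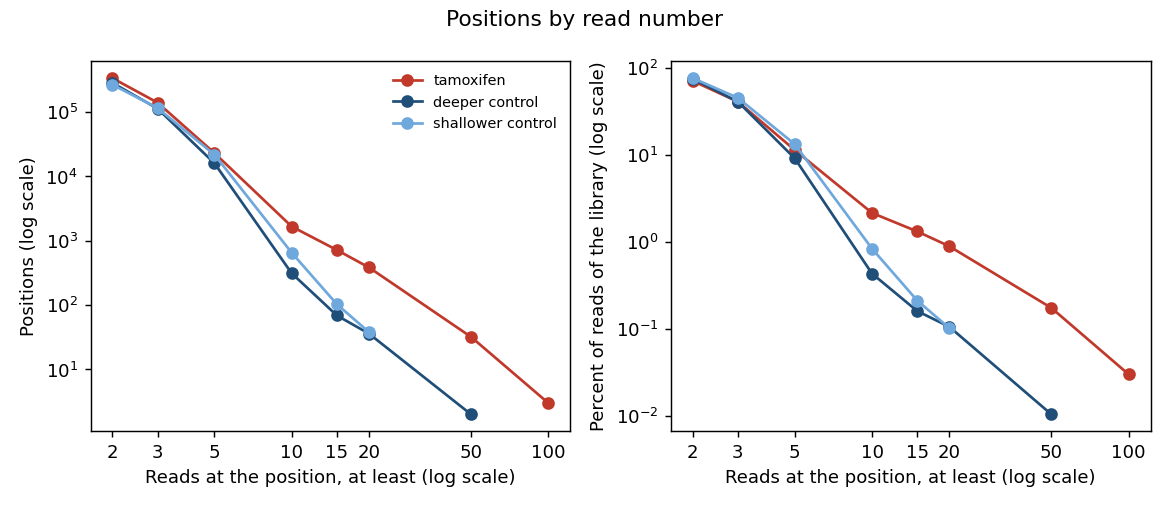
Number of positions (left) and percent of the reads of the library (right) at positions with at least the number of reads on the x axis, for the tamoxifen library and both controls; all axes are logarithmic, and points at 0 are not drawn. The 3 lines run together up to 5 reads, and from 10 reads on tamoxifen lies above both controls. At 20 or more reads there are 385 against 36 and 38 positions. Read numbers are not adjusted for the greater depth of the tamoxifen library.

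The tamoxifen library was also the deepest. Limits were lowered to the same share of each library, 15.4 reads for the deeper and 14.8 for the shallower control. The controls then had 61 and 103 such positions, and the ratio of shares was 4.95. Set against 10 or more tamoxifen reads, such limits were 7.69 and 7.41 reads, and tamoxifen lay between the controls. It had 1666 positions with 2.17% of its reads, and the controls had 1047 and 2552 with 1.05% and 2.46%. At 15 or more tamoxifen reads (limits of 11.5 and 11.1) the shares were 1.33% with tamoxifen and 0.263% and 0.451% in the controls. In the control table, where positions were called on the controls alone, they had 39 each at 20 or more reads. Without the shallower control the ratio was 8.43 and without the deeper one 8.72.

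The 385 positions fell into 279 stretches when neighbours within 1000 bp were joined, and 220 stretches were a single position. They lay in 137 of the 267 windows of 1 Mb, with at most 16 in a window. Both controls together had 3 or fewer reads at 158 of them (41.0%), and at 26 neither control had a read. The deeper control had 1 read or less at 172 of them and the shallower one at 124. These positions were chosen on their tamoxifen reads, so their level over the controls is a description and no test. Positions chosen on 1 control allow tamoxifen to be set against the other control without a choice on tamoxifen reads. The 2 are still not read alike. Both controls are read at the summit of the pool, which the chosen control helps to place, and tamoxifen at its own summit. The level of these ratios is therefore a description too. At the 69 positions with 15 or more reads in the deeper control, tamoxifen had 1.45 times the share of the shallower control, and at the 103 such positions of the shallower control 1.15 times the share of the deeper one. At positions with 5 or more reads in a control the ratios were 0.82 and 0.88. The first 2 ratios are of summed reads: tamoxifen had the higher share at 40 of the 69 and at 37 of the 103 positions, and the position with 171.5 tamoxifen reads is in both sets. Tamoxifen had 1 read or less at 0 of the 69 and at 5 of the 103. At 20 or more reads in a control the ratios were 1.38 (36 positions of the deeper) and 1.21 (38 of the shallower). The ratio of summed reads thus passed from below 1 to above 1 toward fuller positions.

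Single stretches show both kinds of place. Coordinates are those of the authors' table in build rn6; which genes or repeats lie there was not analysed here. The stretches named were picked after their values were seen. The fullest ran from chr2:193572242-193573267 (first to last summit) and held 8 heavily read positions with 821.5 tamoxifen reads, 112.5 in the deeper and 146.5 in the shallower control. Its highest position, centred at 193572912, had 171.5 tamoxifen reads, 20.5 and 34. Both controls were thus well above their own surroundings there, and the tamoxifen share was 4.78 times that of both together (0.5 reads added to each). In the rest of the 3000 bp on either side of its middle, 16 further positions held 26 tamoxifen reads, 20 in the deeper and 24 in the shallower control.

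A stretch at chr2:198596782-198598112 held 151 tamoxifen reads in 4 positions but 7 reads in the deeper and 11.5 in the shallower control, a share 12.0 times theirs. One at chr2:251862397-251863177 held 121.5 tamoxifen reads against 6 in each control. At chr2:115890627-115891102 there were 80.5 tamoxifen reads against 0 in the deeper and 4 in the shallower control. These stretches stood out in the tamoxifen library and not in the controls. Not all full stretches were raised. At chr2:160885667-160886802 tamoxifen had 118.5 reads, the deeper control 130 and the shallower control 100, a ratio of shares of 0.78. Of the 24 stretches with 3 or more heavily read positions, 14 had under 20 control reads in all and 9 had 60 or more. Copy number, repeat content and PCR copies at these places were not tested.

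**Figure D2:**
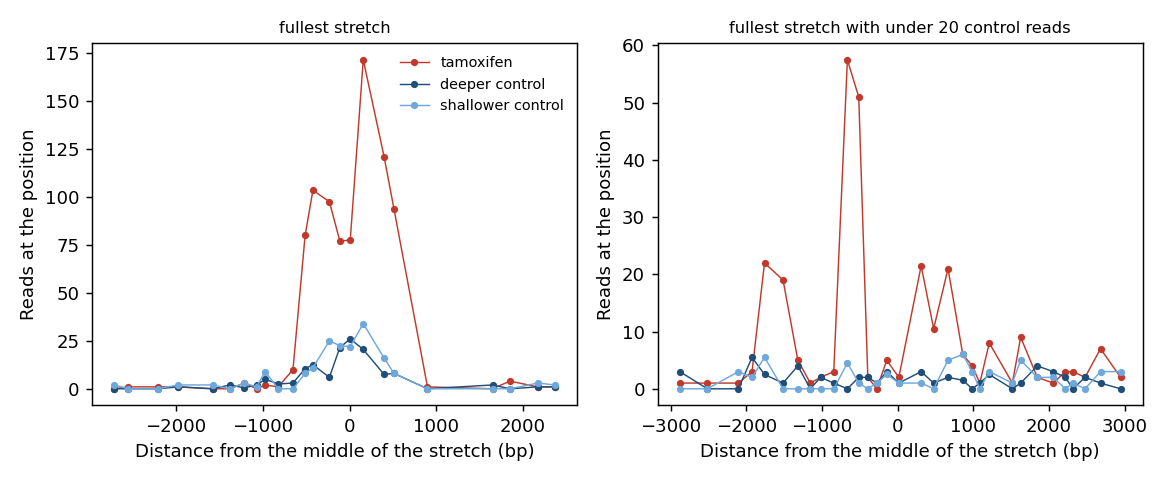
Reads at each called position against its distance in bp from the middle of a stretch, for the tamoxifen library and both controls, at the fullest stretch (left, 821.5 tamoxifen reads) and at the fullest one with under 20 control reads (right, 151). On the left the controls rise together with tamoxifen, to 20.5 and 34 reads at its highest position, and on the right they stay low along the whole 3000 bp on either side.

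Along the chromosome, the share of reads per window differed between tamoxifen and both controls by small amounts that extended over megabases. Ratios are log2 of the library's share of reads, set to 0 at the median window. In 267 windows of 1 Mb the SD of tamoxifen over both controls was 0.080, against 0.054 between the controls, and counting alone gives 0.028 and 0.035. Taking the counting part away left 0.075 and 0.042. In 27 segments of 10 Mb the SDs were 0.050 and 0.022. In 2610 windows of 100 kb they were 0.149 and 0.147, and 0.116 and 0.087 beyond counting. The 100 kb value was 0.175 over the shallower control alone and 0.157 over the deeper one alone. Neighbouring windows of 1 Mb had a correlation of 0.50 for tamoxifen over both controls and of 0.22 for the control pair, given as a description over windows that share their libraries.

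A window was counted as higher or lower when its log2 ratio lay at least 0.32 beyond both controls, and no window of 1 Mb did (0% of 267). The highest was that from 187000001 to 188000000, with 8226 tamoxifen reads, 5108 in the deeper and 5001.5 in the shallower control. Its log2 ratio over both was 0.31 (95% exact binomial interval 0.27 to 0.35), with the controls 0.02 apart. The window after it, from 188000001 to 189000000, was next at 0.29 (0.25 to 0.33), with 8214.5, 5274.5 and 4971 reads. Both windows stood above each control by far more than the controls stood apart. With at most 3 reads counted per position they were at 0.18 and 0.16. The windows starting at 210000001, 24000001 and 260000001 followed at 0.21, 0.20 and 0.19.

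The lowest windows departed less from the median. That from 162000001 to 163000000 had few reads, 1051.5 with tamoxifen, 891.5 in the deeper and 926.5 in the shallower control, and a log2 ratio of -0.18 (95% exact binomial interval -0.29 to -0.07) while the controls were 0.11 apart. The named windows were ranked by the ratio to the nearer control, and some windows not named were as low over both. Those starting at 191000001, 76000001, 65000001 and 145000001 were at -0.15, -0.14, -0.13 and -0.12. On the scale of 10 Mb, the segment from 180000001 to 190000000 was the highest at 0.09 (0.08 to 0.11) and that from 130000001 to 140000000 the lowest at -0.11 (-0.13 to -0.10). In the lowest segment the controls themselves were 0.06 apart, and in the highest 0.03.

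**Figure D3:**
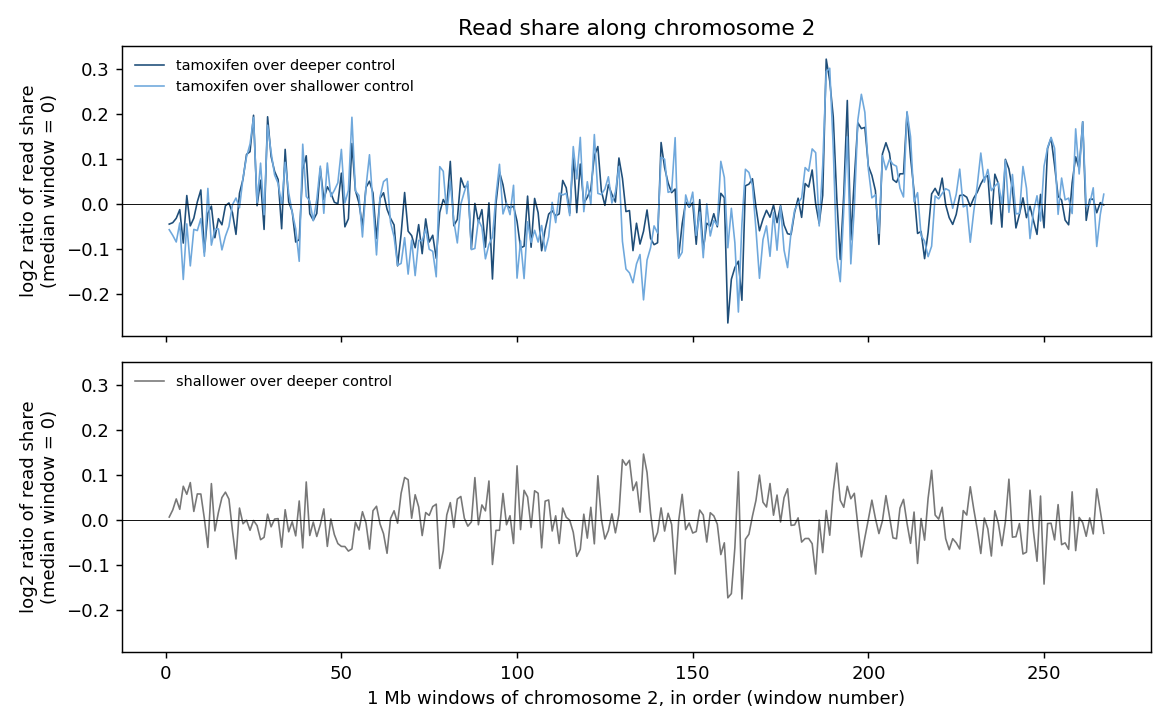
Log2 ratio of the share of reads per 1 Mb window in order along chromosome 2, tamoxifen over each control (top) and the shallower over the deeper control (bottom), on the same y axis with the median window at 0. The 2 lines of the upper panel, which share the tamoxifen reads, are highest in the neighbouring windows at 0.31 and 0.29 over both controls. Their SDs are 0.090 over the shallower and 0.077 over the deeper control, against 0.054 for the control pair.

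Of the windows of 100 kb, 42 were higher with tamoxifen than in both controls by that limit (1.61% of 2610) and 13 lower (0.498%). The controls were that far apart from each other in 72 windows (2.76%), although that count needs only 1 comparison to pass and the others need 2. The 42 higher windows lay in 32 windows of 1 Mb, with 4 between 187000001 and 188000000. They held 79 of the 385 heavily read positions, and the 13 lower windows held none. The windows were called on the same tamoxifen reads, so these numbers are a description and no test. With 0.498% of windows in the lower set, few such positions would lie there in any case. When at most 3 reads were counted per position, 9 windows were higher and 4 lower, and 41 of the 42 were still above the median window. The windows just inside and outside the limit were at 0.33 and 0.32 over the nearer control on the higher side, and at -0.32 and -0.32 on the lower.

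Windows of 100 kb were named by the ratio to the nearer control with that limit of 3 reads, among those with at least 100 control reads. The highest began at 130100001, 5500001, 187100001, 188700001 and 187500001. That from 187100001 to 187200000 had 867 tamoxifen reads, 510.5 and 465, a log2 ratio over both of 0.44 (95% exact binomial interval 0.30 to 0.57). That from 5500001 to 5600000 had 571, 334.5 and 308.5 reads, at 0.43 (0.27 to 0.60). The one at 130100001, first in this ranking at 0.49, rested on 115.5, 65 and 60 reads (0.12 to 0.87). Of these 5 windows, 3 lay in the 2 highest windows of 1 Mb. The lowest began at 59400001, 132300001, 161400001, 247500001 and 162900001. That from 59400001 to 59500000 had 311, 316 and 298 reads, at -0.38 (-0.58 to -0.18). The interval of the window at 161400001 reached 0.00, with 80, 79.5 and 80 reads.

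The ratio also followed how full a window was, in a comparison likewise added after the data were seen. To keep the ranking apart from the ratio, windows of 1 Mb were ranked by 1 control and tamoxifen was set over the other. From the thinnest to the fullest quintile the median log2 ratio over the deeper control went from -0.02 to 0.05, and over the shallower control from -0.08 to 0.08. Tamoxifen was above the median window in 48 and 49 of the 54 fullest windows and in 16 and 14 of the 54 thinnest. The shallower over the deeper control, ranked by tamoxifen, went from 0.03 to -0.01, so that the deeper library had the higher share in full windows there too, by a smaller difference. Across the 267 windows Pearson's r was 0.51 over the deeper and 0.50 over the shallower control, as a description of windows from the same 3 libraries. Across the 2610 windows of 100 kb it was 0.13 and 0.10.

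The size of this trend depended on how many reads a position could add. The fullest minus the thinnest quintile was 0.073 over the deeper and 0.16 over the shallower control with every read, 0.050 and 0.092 with at most 3 reads per position, and 0.0012 and 0.033 with at most 1. At 100 kb it was 0.096 and 0.14 with every read and turned to -0.028 and -0.0063 with at most 1. Without the 385 heavily read positions it was 0.072 and 0.15 at 1 Mb. Of those positions 152 (39.5%) lay in the fullest quintile by both controls together, which held 26.7% of the tamoxifen reads, and 42 (10.9%) in the thinnest, which held 13.8%. The tamoxifen library was the deepest of the 3, and the part of depth in the trend was not tested.

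**Figure D4:**
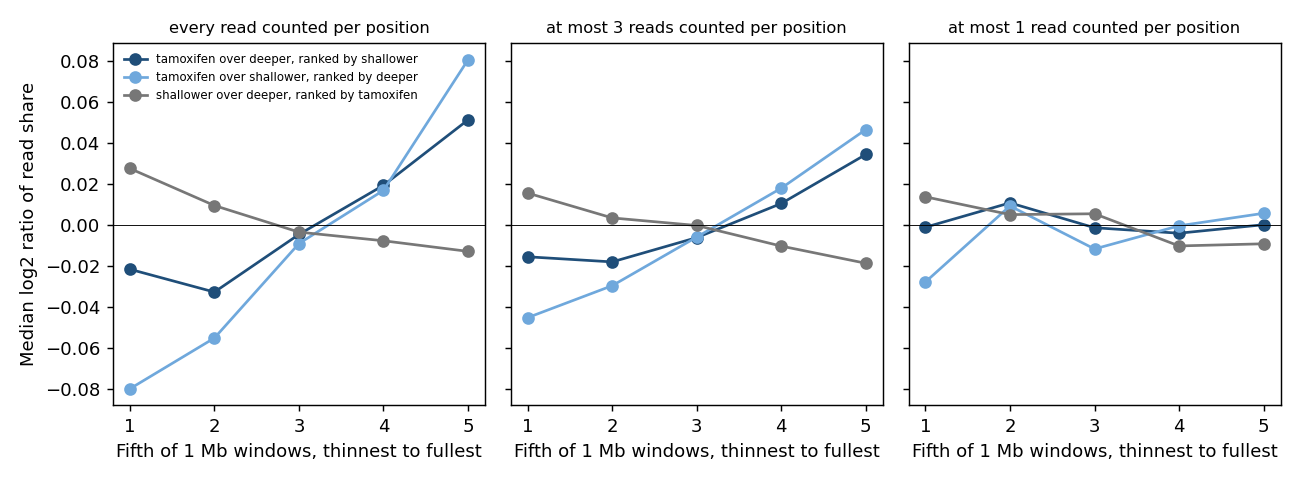
Median log2 ratio of the share of reads in each quintile of 1 Mb windows, from thinnest (1) to fullest (5), for tamoxifen over each control, ranked by the other control, and for the control pair, ranked by tamoxifen. The 3 panels count every read, at most 3 and at most 1 read per position; the rise from -0.08 to 0.08 over the shallower control in the first panel is one from -0.03 to 0.01 in the last.

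The deposited fuzziness score was lower with tamoxifen than in the pool and higher than in each control alone. The lowest scores at equal reads were also lower with tamoxifen than in the pool. Over the 495162 positions with reads on both sides the median log2 ratio of the score, tamoxifen over the pool, was -0.13, against -0.029 for the shallower over the deeper control. Over all positions it was -0.12, but a side without reads has a score near 62.0 there, which measures no scatter. At the 15440 positions with the same number of reads, 3 or more, on both sides it was -0.13. With 3 or more reads on both sides, equal or not, it was -0.096 and below 0 in 27 of 27 segments of 10 Mb. A pool of 2 libraries is not the same quantity as a single library, so tamoxifen was also set against each control at positions matched within 20 bp between the tables and with equal reads of 3 or more. Over the shallower control the ratio was 0.076 (4479 positions, median scores of 43.9 and 41.6). Over the deeper control it was 0.048 (4703 positions, 43.9 and 42.6), and for the shallower over the deeper control -0.028 (4882 positions). Tamoxifen was above the shallower control in 26 of 27 segments and above the deeper control in 26 of 27. All segments come from the same 3 libraries and share the scale of each library's score, so their counts are a description.

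The score itself moved with the scale of the authors' coverage. A position with a single, isolated read had the same score throughout a library, and that score fell as the value of a read rose: 38.2 with tamoxifen (7.13 units a read), 37.8 in the deeper control (7.60) and 37.0 in the shallower one (8.44). With 3 reads the lowest scores were 31.8, 31.5 and 31.1 in the same order. In the pool, where a read is worth least, the lowest scores with 3 reads of 1 control were 34.7 (deeper) and 34.1 (shallower). At the 15222 positions with equal reads of 3 to 6 on both sides, the lowest scores at the scaled values of each side were by themselves -0.11 apart, out of a ratio of -0.13 over the pool. Divided by those lowest scores, the ratio to the pool was -0.025. The division takes the gap of the lowest scores off the ratio by arithmetic. Whether the scale moves scores above the lowest by as much was not tested. When each score of a single library was divided by the lowest score of its library at that number of reads, tamoxifen stood at 0.046 over the shallower and 0.036 over the deeper control on the log2 scale, and the pair at -0.0090. A measure that does not use the size of the score is the share of positions at that lowest value. Among positions with 2 reads it was 19.9% with tamoxifen, 23.3% in the deeper and 29.5% in the shallower control, and with 3 reads 8.03%, 10.3% and 14.9%. By this share the controls were farther apart from each other than tamoxifen was from the deeper control. All of these single-library measures followed the order of depth, with tamoxifen first and the shallower control last. Depth and the drug cannot be told apart with 1 treated library.

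**Figure D5:**
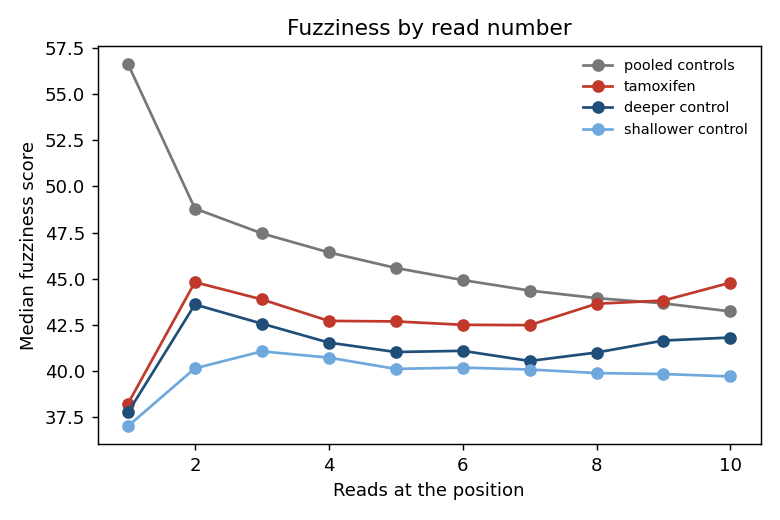
Median deposited fuzziness score of positions with 1 to 10 reads, for the pool of both controls, the tamoxifen library and each control in its own table. At 3 reads the medians were 47.5, 43.9, 42.6 and 41.1; tamoxifen lies between the pool and both single controls up to 8 reads and above the pool at 9 and 10.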

How the data were processed

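Tables for 3 libraries, 1 tamoxifen and 2 control, were used for chromosome 2. Per the submitters' processing notes Bowtie2, SAMtools 1.4 and build rn6 were used; the position caller was not given in the sources used here. Per the file headers, the authors deposited a coverage signal at each summit (occupancy), a fuzziness score, a summit distance in bp and a log2 ratio of occupancy; another 8 per-library columns stayed unused. In the authors' deposited table the log2 ratio differed by over 0.01 from the ratio of the summit values at 40.1% of positions with reads on both sides, so ratios were recomputed from the values.

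Coverage was divided by the value of a read (7.12664 units with tamoxifen), and the pool was split into multiples of 2 steps, with a largest misfit of 1.25e-09. Windows of 100 kb needed 20 positions. Shares are of all reads at listed positions, and log2 ratios were centred on the median window. Intervals are exact binomial (Clopper-Pearson, 95%). Windows were named by rule: the 5 highest and 5 lowest by the ratio to the nearer control, at 100 kb with at most 3 reads counted per position and 100 control reads. The window method was tested on simulated data. The regions, rules and lists were chosen with earlier results of these data known. Gene and feature comparisons were planned but not made, since no annotation of build rn6 was used here. Python 3.11.15, numpy 2.4.6, pandas 2.3.3, scipy 1.17.1 and matplotlib 3.10.9 were used.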

Additional observations from a re-analysis of the deposited data

How the results depend on the processing

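Counts of windows depended on width and on how reads were counted. The SD over 100 kb windows, 0.149, was 0.196 with windows of 50 kb, 0.119 with 200 kb, 0.115 with at most 3 reads per position and 0.130 with positions read on both sides only. With at most 3 reads the SD of the control pair was 0.128. The 42 higher and 13 lower windows became 153 and 79, 12 and 2, 9 and 4, and 19 and 7 under the same 4 settings, and 5 and 1 with a limit of 1.5 times. With at least 100 positions per window 8 were lower, and without centring 20. Leaving out 1 control gave 73 to 90 higher and 43 to 55 lower windows and SDs of 0.157 to 0.175, since a window then had to pass 1 comparison only; at 1 Mb it gave 0 to 1 windows. Of 80 recomputed values of named windows 47 stayed within the spread of the controls, 33 moved beyond it and 0 turned direction. The values over a single control among them could not turn, because the windows were chosen to lie on the same side of both controls. How far these values moved was also tied to the gap between the controls, from which the spread was taken. Most of them thus stayed within it by construction, and the 47 is no measure of stability. The quintile trend and the comparison of heavily read positions were themselves added after the data were seen, with all of their settings given next. The quintile difference over the deeper control was 0.0012 with at most 1 read per position and 0.13 with control reads from the control table; over the shallower control it was 0.092 with at most 3 reads and 0.033 with at most 1. The ratio of shares at heavily read positions, 8.57, was 3.40 at 10 or more reads, 7.10 at 15 or more, 4.95 at limits of equal share and 9.15 with the control table, and 8.43 to 8.72 without 1 control. Settings of the remaining results were planned except where marked as added. The share of positions 2 times apart, 64.3%, was 61.9% with 3 or more reads on a side and 35.5% with reads on both. The fuzziness ratio to the pool, -0.12, was -0.096 with 3 or more reads on both sides. It was -0.025 after division by the lowest score at the same scaled value (added, with equal reads of 3 to 6). That division takes out the gap between the lowest scores, and scores above the lowest need not scale alike. The ratio to single controls, 0.062 on average, was 0.085 with 5 or more reads and 0.048 to 0.076 without 1 control. After division by the lowest score (also added) it was 0.041. Where no construction is named, the cause was not tested. No paired analysis was possible because the groups share fewer than 2 replicate numbers. The planned gene and feature alternatives were not run.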

Other observations

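Summits of tamoxifen and the pool lay a median of 20 bp apart where both sides had reads (495162 positions), against 30 bp for the control pair (364707 positions). With 3 or more reads on both sides the median was 30 bp in both comparisons (60363 and 25200 positions). With 10 or more it was 20 bp for tamoxifen (280 positions) and 12.5 bp for the pair (138 positions). The closer summits of tamoxifen over all positions were thus not seen where positions were better read.

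Among the heavily read tamoxifen positions without any control read, the fullest were centred at 144467872 with 34.5 reads, 83710852 with 32 reads and 247988422 with 29 reads. They were chosen on their tamoxifen reads and carry no test.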
